A study of Mus musculus with 2 samples.

Results

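The kinesin genes of mouse germinal center B cells were described in 2 single-cell RNA libraries. Members were all genes with a symbol that starts with Kif followed by a digit or the letter c and with at least 20 transcript molecules (UMIs) summed over the barcodes kept from both libraries. Of 30905 genes listed, 44 had such a symbol and 29 were members. The mice were C57BL/6J, 8 weeks old and immunized with SRBC, that is sheep red blood cells, which drive a T cell-dependent response, and germinal center B cells were sorted from the spleen. Both libraries belong to 1 group, with no untreated or mutant animals, and nothing in the labels says whether they came from separate mice. All comparisons are therefore between classes of cells within each library. The p-values rest on these 2 libraries and on a spread that the test estimates largely across all genes tested. They are thus no measure of the spread of a single gene between the libraries, or of a spread between mice.

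Kinesins are motors that use ATP to walk along microtubules or to take microtubules apart. Mitotic kinesins build the spindle, move and align chromosomes and help to cut the daughter cells apart, while transport kinesins carry vesicles, organelles and cilium components through the cytoplasm at any stage of the cell cycle. Germinal center B cells divide mostly in the dark zone, where they express the chemokine receptor Cxcr4, and are selected in the light zone, where they express the activation markers Cd83 and Cd86.

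The libraries held 75121538 and 61874342 UMIs in 8765 and 7868 barcodes. A barcode counted as a cell with 500 or more genes, 1000 or more UMIs and a mitochondrial share of 20% or less, which left 5142 and 3526 cells with medians of 8183.5 and 8243 UMIs. Of 11 germinal center B cell markers, 11 were found in over 5% of the cells in each library, and of the markers of T cells, macrophages, neutrophils, erythroid cells, natural killer cells, stroma, dendritic cells and platelets none was. The 2 libraries shared 22 barcodes, 9 of them in cells kept from both. To read marker genes at equal depth, each cell was thinned to 3400 UMIs, and 465 and 391 shallower cells were left out of all comparisons. Levels below are CPM (counts per 1000000 UMIs) of the unthinned cells of a class, summed per library. These are 3' tag counts, with no scaling for gene length, so levels of different genes are not ranked.

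By textbook role, 13 members are mitotic motors (Kif2c, Kif4, Kif11, Kif14, Kif15, Kif18a, Kif18b, Kif20a, Kif20b, Kif22, Kif23, Kifc1 and Kifc5b). Another 11 carry cargo or act on interphase microtubules (Kif1b, Kif1c, Kif3a, Kif3b, Kif3c, Kif5b, Kif13a, Kif13b, Kif16b, Kif21b and Kifc2). The other 4 act at cilia, centrioles or microtubule ends (Kif2a, Kif9, Kif19a and Kif24), and Kif1bp, a kinesin-binding protein that the symbol rule also takes, is no motor. Mitotic motors held 70.0% of the members' UMIs, transport motors 23.2%, the cilium and microtubule-end group 5.42% and Kif1bp 1.38%. Closest above the threshold were Kif13a with 25 UMIs and Kifc2 with 27, and closest below it was Kif5c, a neuronal heavy chain, with 16. The other symbols below the threshold, among them the neuronal Kif1a and Kif5a, the motile cilium gene Kif6 and the testis gene Kif2b, had 0 to 11 UMIs. Kifc1 and Kifc5b are near-identical copies, so the split of reads between them is uncertain. Kif13a and Kifc2 were too low to be tested in any comparison, which leaves at most 27 members.

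Promoter windows of 22 members were found in a RefSeq table of build GRCm38.p6, reaching from 250 bases before to 50 bases after the annotated start. There was no entry for Kif20a, Kif1bp, Kif19a, Kif13b, Kif21b, Kif5b and Kifc2. Elements known from cell cycle promoters were searched on both strands. The cell cycle gene homology region (CHR), searched as TTTGAA and in its rarer form as TTCGAA, is what the DREAM and MuvB complexes bind in genes of G2 and mitosis. An E2F-like site, of the kind found in genes of DNA replication, was searched in the forms TTTCGCG with TTTGGCG and then also TTCCCGC with TTGGCGC, which can overlap one another. The following 9 stretches show mitotic motors with and without these letters, the centriolar motor Kif24 and, for contrast, 2 transport motors, 5′ to 3′ on the gene's own strand, with CHR and E2F-like letters in capitals. Where the window reaches annotated exon, only 30 bases around the site are printed. The first 4 are mitotic motors with a CHR close to the start.
Kif11 (chr19:37376262-37376381, plus strand): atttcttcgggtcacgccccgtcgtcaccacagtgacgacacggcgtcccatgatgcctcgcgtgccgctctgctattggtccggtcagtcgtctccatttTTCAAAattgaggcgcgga
Kif22 (chr7:127042421-127042450, minus strand): ggggccccggtaaTTCAAAagagagaagcg
Kif23 (chr9:61946782-61946811, minus strand): cgctgattggcctgTTTGAAatgcgccggg
Kif20b (chr19:34922358-34922387, plus strand): gccattgTTTGAATTTGAAaaccgggagga
Kif15, whose E2F-like letters directly precede a CHR (chr9:122951041-122951070, plus strand): gtggtccgttgggGCGCCAAATTCAAAtct
Kif18a, the mitotic motor with a window but no CHR letters in it (chr2:109280618-109280737, plus strand): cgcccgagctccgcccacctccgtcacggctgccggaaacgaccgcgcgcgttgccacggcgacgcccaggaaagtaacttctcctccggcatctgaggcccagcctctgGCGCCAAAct
Kif24, a centriolar motor (chr4:41464857-41464886, minus strand): tcggcgcgcgcgTTCGAActggcgcttgtg
Kif3b, a transport motor (chr2:153291296-153291412, plus strand): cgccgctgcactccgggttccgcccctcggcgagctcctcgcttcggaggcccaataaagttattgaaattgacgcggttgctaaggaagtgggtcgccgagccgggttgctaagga
Kif1c, a transport motor that passed in no comparison (chr11:70700428-70700547, plus strand): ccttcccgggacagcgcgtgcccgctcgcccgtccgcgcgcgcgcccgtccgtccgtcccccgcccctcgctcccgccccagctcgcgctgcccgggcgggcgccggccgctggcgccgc

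CHR letters were present in 11 of 12 mitotic motors with a window (91.7%), in 0 of 7 transport motors and in 1 of 3 of the cilium and microtubule-end group, Kif24. Of all 32851 promoter windows in the table, 19.2% held them. Within 50 bases of the start, a distance chosen after the positions were seen, 9 of 12 mitotic motors held a CHR (75.0%) against 5.31% of all windows. In Kif20b 2 copies stood directly side by side. CCAAT, the letters of the NF-Y box that often accompanies a CHR, were present in 8 of 12 mitotic and 3 of 7 transport motors, and in 37.4% of all windows. E2F-like letters were present in 2 of 12 mitotic motors (Kif15 and Kif18a), in 1 of 7 transport motors (Kif1b) and in Kif2a, against 8.40% of all windows. The RefSeq starts of Kif2c and Kif14 lay 3867 and 1505 bases inside the gene as GENCODE M21 draws it, so their windows may not cover the start in use. A match describes letters only, and no binding was measured.

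All 13 mitotic motors were higher in cells that carried the mitotic pair Cdc20, an activator of the anaphase-promoting complex, and Plk1, polo-like kinase. Cells with at least 2 thinned UMIs of the pair (1025 and 836 cells) were compared with cells with 0 (2805 and 1757 cells). The log2 fold changes of the 13 ran from 0.69 for Kif15 to 2.15 for Kif2c, with a median of 1.47, beside a median of 0.00 over all 11172 genes tested. Of all genes tested, 22.5% were called higher and 20.8% lower (edgeR quasi-likelihood test, adjusted p below 0.05, in all comparisons here). The pair itself was 2.99 (Cdc20) and 2.65 (Plk1) higher on the log2 scale, which the gate fixes. Cells with the pair were deeper, with medians of 11934 and 11476.5 against 7614 and 7996 UMIs, and had a lower naive or memory B marker sum (221 and 267 against 370 and 427 CPM), whose part was not tested. With the thinned counts summed, so that every cell had 3400 UMIs, the 13 mitotic motors were called again.

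Kif2c, the kinetochore motor that takes microtubules apart, stood at 78.2 and 83.5 CPM in libraries 1 and 2 in cells with the pair and at 17.4 and 20.1 CPM in cells without. The log2 fold change was 2.15 ± 0.07 (SE; edgeR adjusted p 4.39e-218). Kif20a, which brings Aurora B to the midzone of the dividing cell, stood at 88.3 and 91.3 against 21.1 and 22.8 CPM, a log2 fold change of 2.07 ± 0.06. Levels of both motors in cells with the pair were thus about 4 times those in cells without, the fitted folds being 4.44 and 4.20. Kifc1, a minus-end motor that gathers spindle poles, stood at 65.1 and 67.2 against 18.9 and 21.5 CPM (log2 fold change 1.76 ± 0.07). Kif22, which pushes chromosome arms outward along spindle microtubules, stood at 147 and 150.3 against 48.3 and 49.7 CPM (1.64 ± 0.05). Both chromosome and pole motors were high in both libraries alike. Kif18b, which limits astral microtubules, stood at 33.9 and 39.4 against 11.8 and 13.1 CPM (1.59 ± 0.08). Kif14, which works with citron kinase in cytokinesis, stood at 37.9 and 33.5 against 12.9 and 11.7 CPM (1.57 ± 0.08). For the other 7, Kif23, Kif18a, Kif20b, Kif4, Kif11, Kifc5b and Kif15, the log2 fold change lay between 0.69 and 1.47.

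**Figure D1:**
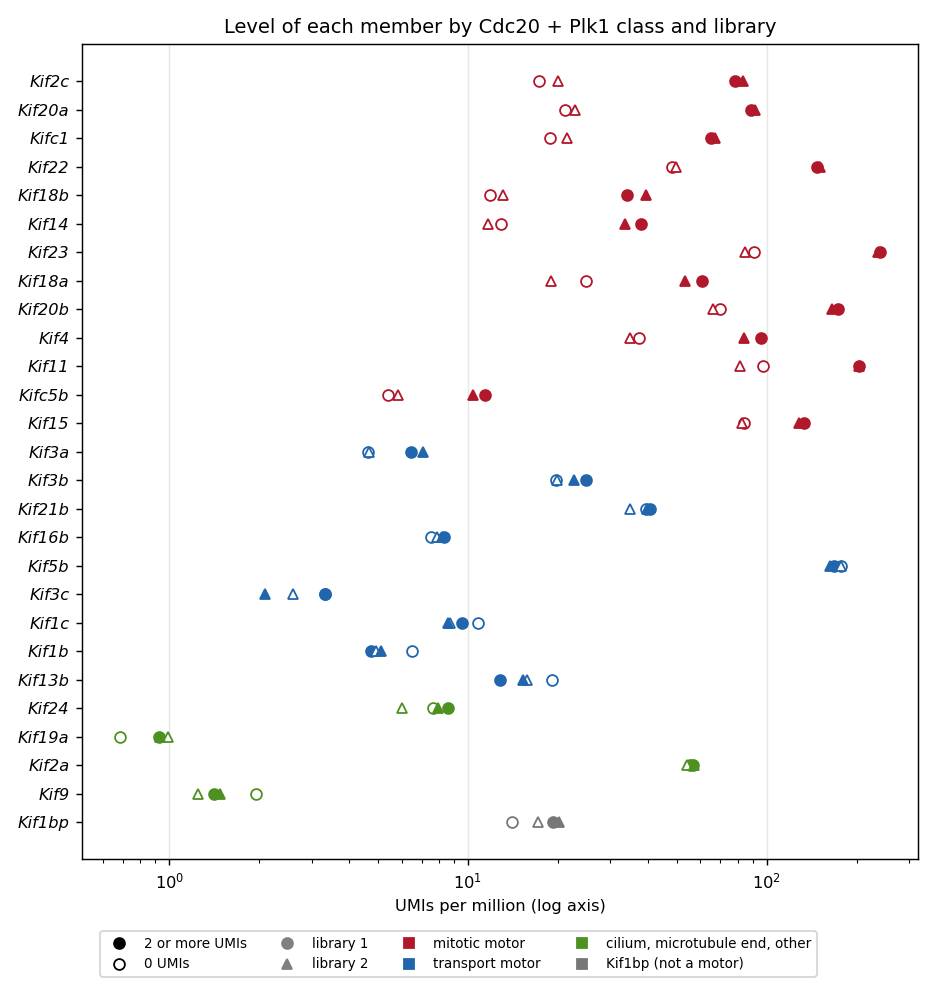
Level of each member in cells with at least 2 and with 0 thinned UMIs of Cdc20 and Plk1, in CPM on a log axis, filled and open points for the classes, circles and triangles for libraries 1 and 2. The mitotic motors separate, with Kif2c at 78.2 and 83.5 against 17.4 and 20.1 CPM, while Kif5b lies at 168 and 163 against 177 and 177 CPM.

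The transport motors split from the mitotic ones by this measure. Of 9 tested, 2 were called higher and 1 lower, with a median log2 fold change of -0.06 over the 9. These counts were no more than the shares over all genes tested, 22.5% higher and 20.8% lower. Kif5b, the heavy chain of conventional kinesin, stood at 168 and 163 CPM with the pair and 177 and 177 CPM without, a log2 fold change of -0.06 ± 0.05 (adjusted p 0.34). Its levels differed by far less than those of any mitotic motor. Kif3a and Kif3b, the heterodimer of kinesin-2 that serves transport into cilia, were called higher by 0.57 ± 0.15 (6.46 and 7.08 against 4.63 and 4.68 CPM) and 0.30 ± 0.08 (24.9 and 22.6 against 19.8 and 19.9 CPM). Kif13b, a kinesin-3 motor, was called lower by a log2 fold change of -0.30 ± 0.09 (12.8 and 15.3 against 19.1 and 15.7 CPM). This rested on library 1, at -0.55 against -0.01 in library 2. Kif1bp was called higher by 0.39 ± 0.09. Of the cilium and microtubule-end group, 0 of 4 passed (1 at an unadjusted p below 0.05, 0 by DESeq2), with Kif24 at 0.30 ± 0.13 (adjusted p 0.0551). DESeq2 called the 13 mitotic motors and no other member, and with the thinned counts summed Kif3a, Kif3b, Kif13b and Kif1bp also lost their calls. With the pair counted at full depth Kif3b turned to -0.081.

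Single cells showed the same split. At 3400 UMIs, cells with the pair carried a mean of 3.70 and 3.56 different mitotic motors of 13, and cells without it 1.26 and 1.21. No mitotic motor was seen in 4.88% and 5.14% of cells with the pair and in 47.4% and 47.5% of cells without, so the class without the pair still held many cells with mitotic motor transcripts. Transport motors averaged 0.874 and 0.829 of 11 with the pair and 0.882 and 0.806 without. As a description, Pearson's r across the thinned cells of a library (4677 and 3135 cells) had a median of 0.132 and 0.136 over the 78 pairs of mitotic motors and of 0.003 and 0.002 over the 143 pairs of a mitotic and a transport motor. All these cells share a library and a depth of sparse counts. The highest mean r over the libraries was 0.36, between Kif11, which slides spindle poles apart, and Kif23, the motor of centralspindlin.

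The motors differed in how their level ran with the count of the pair. In library 1, Kif2c was higher in each next class of cells with 0, 1, 2 to 3, 4 to 7 and 8 or more UMIs of the pair, at 17.4, 44.7, 72.3, 87.3 and 172 CPM. Kif15, which backs up Kif11 in the spindle, stood at 84.0, 133, 137, 128 and 98.9 CPM in the same classes. Kif15 was thus highest in the middle classes, in library 2 also, at 82.6, 130.1, 130.4, 124 and 99.2 CPM. Kif2c in library 2 stood at 20.1, 48.4, 72.4, 106 and 135 CPM. Kif24, which restrains cilium growth from the centriole, stood at 7.61, 10.8, 9.38, 6.63 and 6.38 CPM in library 1 and at 6.03, 8.53, 8.97, 5.75 and 4.51 CPM in library 2. Its level was also highest at 1 to 3 UMIs of the pair, on few counts. The last class held only 25 and 19 cells, and without it Kif15 was still lower at 4 to 7 than at 2 to 3 UMIs in both libraries. No test was made along the classes.

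**Figure D2:**
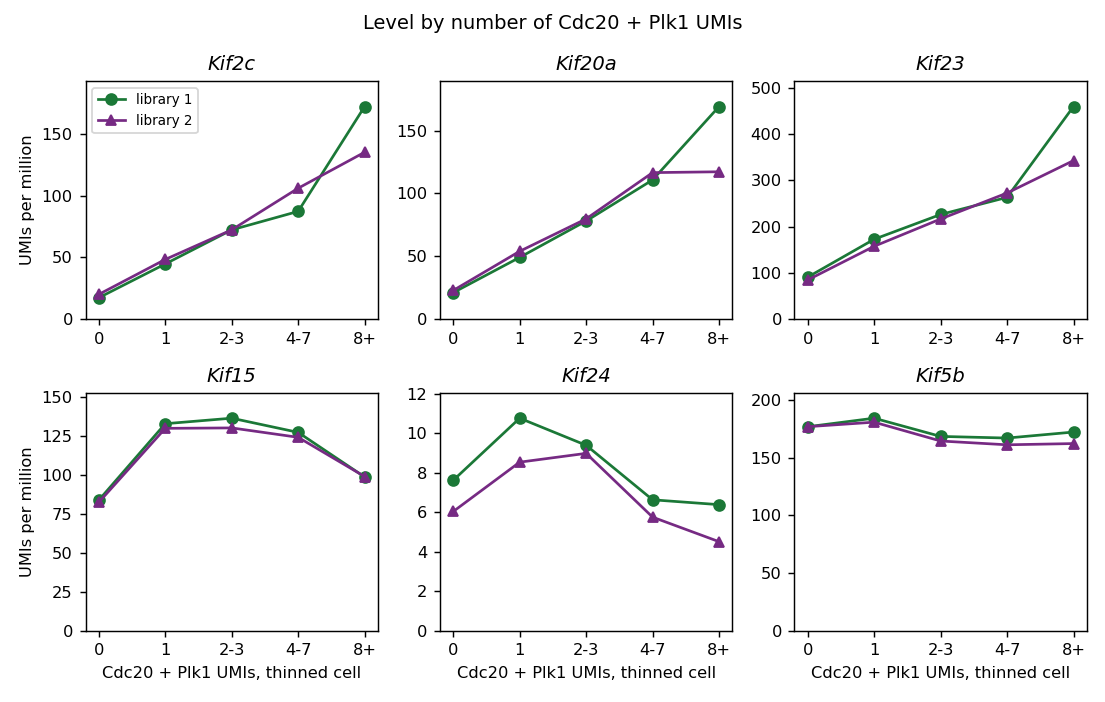
Level in CPM of Kif2c, Kif20a, Kif23, Kif15, Kif24 and Kif5b along 5 classes of the Cdc20 and Plk1 count of the thinned cell, 1 line per library. Kif2c is highest in the last class at 172 and 135 CPM, Kif15 is highest at 2 to 3 UMIs at 137 and 130.4 CPM, and Kif5b stays between 161 and 184 CPM.

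Mitotic motors were also higher in cells with many replication transcripts among those with no thinned UMI of the mitotic pair. Among cells with 0 UMIs of the pair, the upper tertile by the sum of 13 replication genes (Mcm2 to Mcm7, Pcna, Rrm1, Rrm2, Tyms, Dut, Gins2 and Ung) was compared with the lower tertile, 935 cells of each in library 1 and 585 in library 2. Of the 13 mitotic motors 12 were called higher, with a median log2 fold change of 0.81 over the 13, beside a median of -0.02 over all 10341 genes tested. Of all genes tested, 29.7% were called higher and 28.5% lower. Cells with 0 UMIs of the pair numbered 2805 and 1757 when thinned, and 2018 and 1256 at full depth. Many cells with 0 thinned UMIs thus carried the pair. How these were split between the tertiles was not read, and their part in the result was not tested. The lower tertile was shallower (medians of 5494 and 5783 against 10592 and 11640 UMIs). Its naive or memory B marker sum was 666 and 774 CPM against 256 and 287 CPM, and its macrophage marker sum was 63.6 and 11.4 against 1.74 and 0.232 CPM. The part of the naive or memory B cell markers in these differences was not tested. By DESeq2, 9 of the 13 passed, and Kif18a (adjusted p 0.057), Kifc5b (adjusted p 0.060) and Kif2c (adjusted p 0.155) lost their calls. With the thinned counts summed, 15 members were called higher and 2 lower. Without the barcodes that held UMIs of other lineages, 15 members were called higher and 2 lower.

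Kif24 stood at 9.39 and 7.18 CPM in the upper tertile and at 3.44 and 2.68 CPM in the lower, a log2 fold change of 1.53 ± 0.23 (adjusted p 1.42e-05). It was thus higher by replication sum, while by the mitotic pair it did not pass. Kif15 stood at 103 and 106 against 40.8 and 45.1 CPM, a log2 fold change of 1.38 ± 0.08 (adjusted p 6.45e-11). Kif15 had the smallest log2 fold change of the 13 mitotic motors by the mitotic pair and the largest by replication sum. Kifc5b stood at 5.98 and 8.23 against 3.44 and 2.90 CPM (1.19 ± 0.25), and its near-identical copy Kifc1 at 21.3 and 24.3 against 10.2 and 13.8 CPM (1.04 ± 0.14). Kif22 stood at 54.9 and 57.7 against 25.6 and 31.0 CPM (1.09 ± 0.10). All of these were higher in both libraries, as was Kif11 at 104 and 98.3 against 57.5 and 47.3 CPM (1.03 ± 0.08). Kif2c and Kif23, high with the mitotic pair, had log2 fold changes of 0.52 ± 0.13 and 0.50 ± 0.08 here. Kif14 did not pass, at 11.6 and 11.5 against 10.6 and 10.0 CPM (0.24 ± 0.16, adjusted p 0.194). Whether the 2 comparisons differ for a motor was not tested, since they share the cells without the pair.

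Outside the mitotic group, Kif2a, a microtubule-end depolymerase, was called higher at 58.6 and 60.5 against 44.9 and 41.7 CPM (0.54 ± 0.09). Kif21b, which limits microtubule growth, stood at 29.1 and 26.7 CPM in the upper tertile and 56.4 and 42.2 CPM in the lower, a log2 fold change of -0.75 ± 0.10. Kif3b stood at 14.8 and 17.1 against 28.3 and 25.4 CPM (-0.69 ± 0.12). Both transport motors were lower in the upper tertile in both libraries, and without the barcodes holding UMIs of other lineages their values were -0.76 and -0.74. Kif19a, which shortens cilium microtubules, was called lower at -1.64 ± 0.53, on 5 and 5 UMIs against 9 and 8. The call was lost by DESeq2 (adjusted p 0.294) and without the low-count filter (adjusted p 0.057). With mitochondrial UMIs held to 10%, Kif3b also lost its call (-0.43, adjusted p 0.0965).

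**Figure D3:**
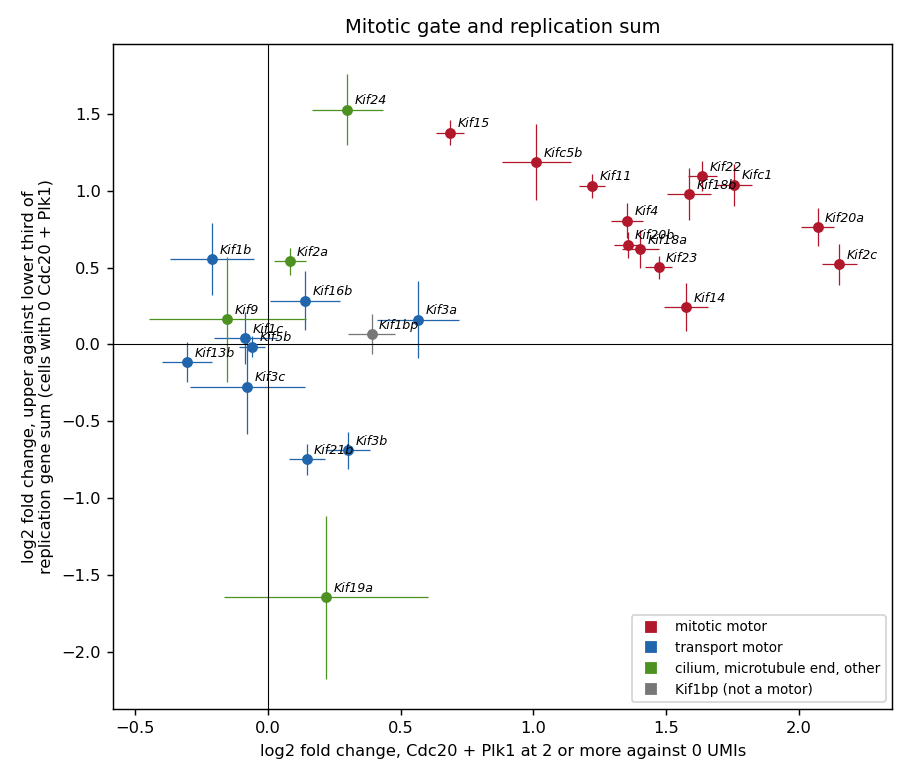
Log2 fold change of each tested member by the mitotic pair (2 or more thinned UMIs against 0) and by the replication sum (upper against lower tertile among cells with 0 thinned UMIs), with bars of 1 SE. Kif2c and Kif20a lie far along the mitotic axis at 2.15 and 2.07, and Kif15 and Kif24 lie high on the replication axis at 1.38 and 1.53.

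The partners of the motors were read from lists of 3 kinds. Of all genes tested, 22.5% were called higher and 20.8% lower with the pair, and 29.7% and 28.5% by replication sum. The adaptors called with the pair and the dynein and dynactin genes called by replication sum were near or below these shares. Of 19 spindle and midzone partners 19 were called higher with the mitotic pair, led by Hmmr (2.14 ± 0.05), which focuses spindle poles, Aurka (117 and 117 against 27.9 and 32.5 CPM), the pole kinase, and Tpx2 (1.95 ± 0.05), its activator. By replication sum 15 of the 19 were called higher and 1 lower, led by Aurkb (1.62 ± 0.09), Mad2l1 (1.57 ± 0.09) and Ndc80 (1.56 ± 0.12). The 1 lower was Cenpe at -0.28, itself a kinetochore kinesin whose symbol the rule does not take, and DESeq2 called the 15 but not Cenpe (adjusted p 0.056). Of 10 tested light chains, adaptors and other kinesin-binding proteins, 2 were called higher with the pair (Kif1bp 0.39 and Klc1 0.25) and 1 lower (Spag9 -0.18), and DESeq2 called 0 in either direction. By replication sum 0 of the 10 were higher (1 at an unadjusted p below 0.05, 0 by DESeq2) and 6 lower, led by Klc3 (-1.26), Trak2 (-0.72) and Klc2 (-0.67). DESeq2 called 2 of the 6 lower, Trak2 and Spag9. Of 18 tested genes of dynein and dynactin, the opposing minus-end motor, 9 were called higher with the pair and 1 lower. Nde1, a dynein regulator at centrosomes and kinetochores, led with 1.13, and Dync1h1, the dynein heavy chain, was the 1 lower at -0.24. DESeq2 called 5 of these higher, Nde1 among them, and 0 lower. By replication sum 5 of the 18 were called higher, led by the light chain Dynll2 (1.49), and 3 lower, where DESeq2 called 3 and 0.

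All 13 mitotic motors were lower in the light zone gate than in the dark zone gate. The light zone gate took cells with Cd83 or Cd86 and no Cxcr4 UMI (1636 and 1171 cells), and the dark zone gate cells with Cxcr4 and no Cd83 or Cd86 UMI (765 and 506 cells), both at 3400 UMIs. The log2 fold changes, light minus dark, ran from -0.68 for Kif18b to -0.28 for Kif15, with a median of -0.54. Of all 10704 genes tested, 15.6% were called lower and 17.4% higher. Cells with at least 2 UMIs of the mitotic pair made up 15.2% and 17.1% of the light zone gate and 30.2% and 34.2% of the dark zone gate (exact 95% binomial intervals of 13.5 to 17.0, 15.0 to 19.4, 27.0 to 33.6 and 30.1 to 38.5%, counting error only). A summed level cannot tell fewer such cells from less RNA in each. The naive or memory B marker sum was 431 and 469 CPM in the light and 187 and 208 CPM in the dark zone gate, and its part in the result was not tested.

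Kif18b stood at 16.8 and 19.2 CPM in the light zone gate and at 27.8 and 29.3 CPM in the dark, a log2 fold change of -0.68 ± 0.10 (adjusted p 4.18e-10). Kif20a stood at 35.6 and 39.3 against 53.2 and 66.5 CPM (-0.67 ± 0.07), and Kifc1 at 29.3 and 31.8 against 42.6 and 50.2 CPM (-0.61 ± 0.08). Each of these 3 genes was lower in the light zone gate in both libraries. Kif4, a chromokinesin of condensation and midzone, stood at 50.1 and 47.7 against 77.0 and 68.9 CPM (-0.59 ± 0.07). Kif2c stood at 35.1 and 37.4 against 49.1 and 56.9 CPM (-0.55 ± 0.08), and Kif22 at 72.3 and 76.6 against 103 and 114 CPM (-0.55 ± 0.06). Of 9 transport motors 2 were called lower, Kif3b (18.9 and 19.3 against 25.1 and 26.0 CPM, -0.43 ± 0.10) and Kif21b (37.8 and 33.6 against 44.3 and 40.8 CPM, -0.26 ± 0.08). Kif2a was lower by 0.22 on the log2 scale, and Kif5b did not pass, at 174 and 175 against 183 and 166 CPM. DESeq2 called 9 members lower, all of them mitotic motors, and lost Kif3b (adjusted p 0.253) and Kif21b (adjusted p 0.442). With the thinned counts summed 11 members were called lower, and Kif3b, Kif21b, Kif2a, Kif14 and Kifc5b were not. The 19 spindle and midzone partners were all called lower by edgeR and 14 of them by DESeq2, led by Cenpe (-0.83), Hmmr (-0.73) and Tpx2 (-0.67).

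At a fixed class of the mitotic pair, the zone difference was seen in the cells without it when the pair was counted in thinned cells. This placement depended on that reading. With the pair counted in unthinned cells, 1 of 13 mitotic motors was called lower without it and 8 with at least 2 UMIs. The median log2 fold changes of the 13 were then -0.40 and -0.21. The rest of this paragraph is for the pair counted in thinned cells. Among cells with 0 UMIs of the pair, 12 mitotic motors and Kif2a were called lower in the light zone gate, against 10.9% of 9602 genes tested. Kif20a stood there at 15.9 and 19.3 against 25.3 and 35.3 CPM (-0.78 ± 0.15), and Kif14 at 9.80 and 11.1 against 17.2 and 16.5 CPM (-0.73 ± 0.19). Kif18b, Kif2c, Kif4 and Kifc1 followed with log2 fold changes of -0.70, -0.69, -0.68 and -0.64, of which Kif18b was -0.87 and -0.41 and Kifc1 -0.42 and -0.88 in libraries 1 and 2. Of the 13 members called, 8 were called by DESeq2, 6 with the thinned counts summed and 6 with mitochondrial UMIs held to 10%. Kif14, Kif15, Kif18a, Kif18b and Kif2a lost their calls in each of these 3 settings. Among cells with at least 2 UMIs, 0 of 13 mitotic motors were called (0 at an unadjusted p below 0.05 and 0 by DESeq2), and their log2 fold changes lay between -0.18 and 0.05. Kif3b was the 1 member called lower there, at 21.2 and 17.4 against 26.8 and 30.2 CPM (-0.54 ± 0.18, adjusted p 0.0345), where 4.16% of genes were called lower. The libraries gave -0.33 and -0.82. The call was lost by DESeq2 (adjusted p 0.263), with the thinned counts summed, at a 10% mitochondrial limit, without the library block and without barcodes of other lineages, and with the pair gated at 3 UMIs the value was -0.14. Only 248 and 200 light zone and 231 and 173 dark zone cells entered that class.

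The difference between these zone effects was tested as an interaction and was called for 6 mitotic motors, all in the direction of a smaller light zone deficit in cells with the pair. These were Kif23 (0.57 ± 0.11, adjusted p 0.000817), Kif20b (0.50 ± 0.12), Kif11 (0.46 ± 0.11), Kif20a (0.69 ± 0.18), Kif4 (0.55 ± 0.15) and Kif2c (0.68 ± 0.19, adjusted p 0.0436). Of all genes 1.17% were called in that direction. Kif20b, a motor of abscission, shows the pattern. Without the pair it stood at 59.8 and 56.8 CPM in the light and 87.6 and 85.8 CPM in the dark zone gate, and with it at 167 and 158 against 175 and 167 CPM.

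The interaction depended on how the pair was read. With the pair counted in unthinned cells and the zone gates as before, an alternative chosen after seeing the data, no member passed it in edgeR (2 at an unadjusted p below 0.05, the mitotic motors ranging from -0.36 to 0.60). In that reading 1 mitotic motor, Kif11, was called lower in the light zone gate among cells without the pair, and 8 among cells with at least 2 UMIs. Many cells with 0 UMIs of the pair at 3400 UMIs carried it at full depth. In the dark zone gate 373 and 231 cells had 0 UMIs of the pair when thinned, and 246 and 150 at full depth. In the light zone gate 1174 and 799 cells had 0 when thinned, and 945 and 615 at full depth. A larger share of the dark zone cells in that class thus carried the pair, and its part in the zone effects was not tested. By DESeq2 the interaction passed for 1 member, and without the library block or with mitochondrial UMIs held to 10% for 0.

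**Figure D4:**
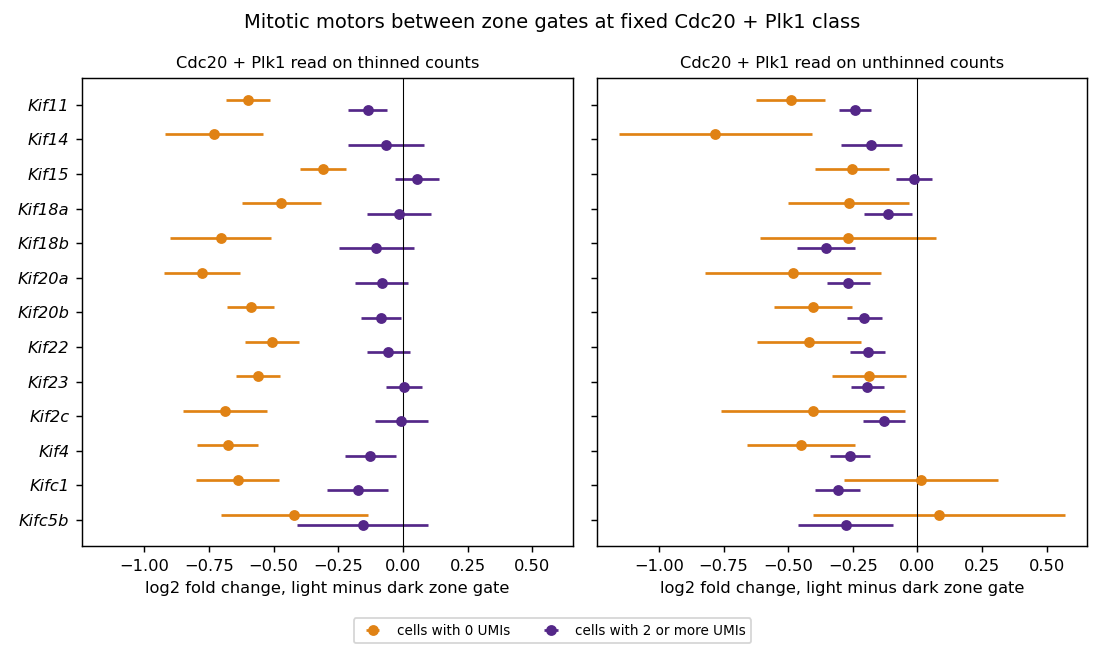
Log2 fold change, light minus dark zone gate, of the 13 mitotic motors within cells with 0 and with at least 2 UMIs of Cdc20 and Plk1, with bars of 1 SE, the pair counted in thinned cells on the left and in unthinned cells on the right. On the left Kif20a lies at -0.78 in cells with 0 and -0.08 in cells with at least 2 UMIs, and on the right at -0.48 and -0.27.

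The heavy chain isotype went with small differences. Cells with at least 5 constant region UMIs, 80% or more of them IgG (2024 and 1315 cells), were compared with cells of which 80% or more were IgM or IgD (1656 and 1207 cells). These UMIs were counted in unthinned cells, so the isotype was not read at equal depth. Of 27 tested members 2 were called higher in IgG cells and 0 lower, where 5.92% of 11200 genes were called higher and 8.12% lower. At an unadjusted p below 0.05, 10 members were higher and 1 lower, and DESeq2 called 0, as did edgeR with mitochondrial UMIs held to 10%. Kif20b stood at 119 and 118 CPM in IgG cells and 99.9 and 102 CPM in IgM cells, a log2 fold change of 0.21 ± 0.05 (adjusted p 9.37e-05). Kif16b, a motor of early endosomes, stood at 8.93 and 8.43 against 6.23 and 7.29 CPM (0.36 ± 0.12, adjusted p 0.0279). In both genes the difference was small beside those by the mitotic pair. All 13 mitotic motors had positive log2 fold changes, from 0.04 to 0.23 with a median of 0.13, beside 0.01 over all genes. Cells with at least 2 UMIs of the pair made up 24.3% and 29.1% of IgG and 21.0% and 24.8% of IgM cells. The naive or memory B marker sum, which holds the Ighd used to define the IgM class, was 195 and 215 CPM in IgG and 411 and 482 CPM in IgM cells, and its part in the result was not tested.

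Within cells with 0 UMIs of the pair, Kif20b was called higher in IgG cells (79.6 and 75.4 against 59.5 and 62.0 CPM, 0.33 ± 0.08), and so was Kif2c (21.6 and 21.7 against 13.6 and 19.3 CPM, 0.41 ± 0.12). Of 10488 genes 1.61% were called higher there. The Kif2c difference was 0.65 in library 1 and 0.15 in library 2. Neither gene was called by DESeq2 (adjusted p 0.0986 and 0.489), with the thinned counts summed, at a 10% mitochondrial limit or without the library block, and Kif2c also lost its call without the highest doublet scores and without barcodes of other lineages. Within cells with at least 2 UMIs, 0 members passed (2 higher and 1 lower at an unadjusted p below 0.05, 0 by DESeq2), where 3.10% of genes were called. The interaction of isotype and pair passed for 0 members and for 0.00% of genes by edgeR (1 member higher and 3 lower at an unadjusted p below 0.05, 0 by DESeq2). Over all cells, 8 of the 19 spindle and midzone partners were called higher in IgG cells, led by Cenpe (0.21), and DESeq2 called 1, Cenpe. Within cells without the pair 2 of the 19 were called higher and within cells with it 0 (1 higher and 1 lower at an unadjusted p below 0.05, 0 by DESeq2). Over all cells Kifap3, the cargo adaptor of kinesin-2, was the 1 adaptor called lower, at -0.33, and DESeq2 called 0.

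**Figure D5:**
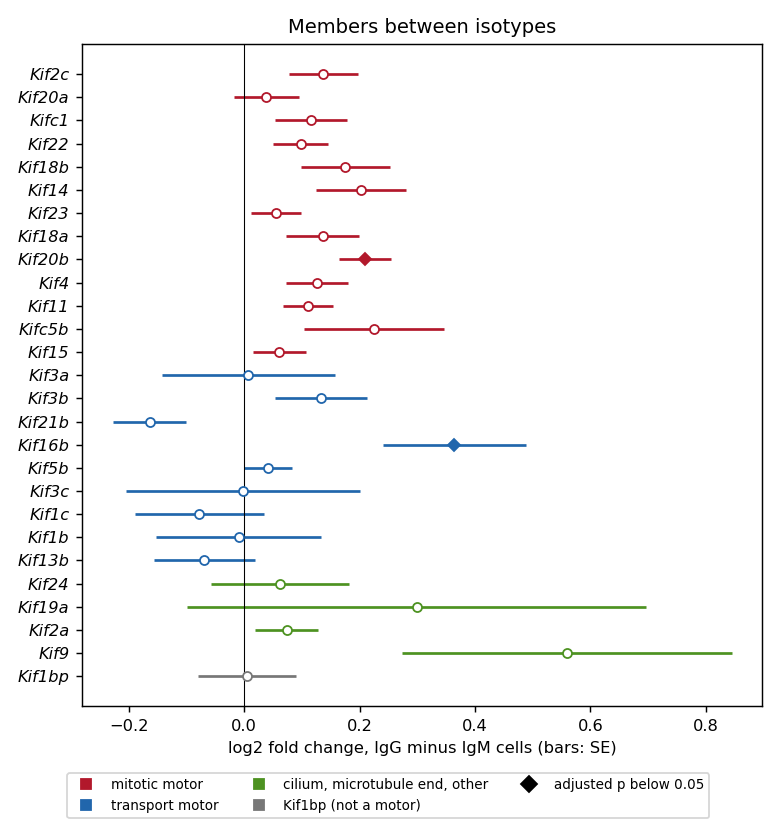
Log2 fold change, IgG minus IgM cells, of the members, with bars of 1 SE and filled diamonds where the adjusted p was below 0.05. The mitotic motors lie between 0.04 and 0.23, and Kif20b at 0.21 and Kif16b at 0.36 passed the test.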

How the data were processed

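The authors deposited UMI counts per gene and barcode from 10x Genomics 3' version 3 libraries, made with Cell Ranger 3.0.2 per the file headers on mm10 per the submitters' processing notes. The members, gene lists and tests were chosen with earlier results of these data known. Named were all members, with the values of the 6 largest changes per direction among those that passed. The limits for a cell were 500 genes, 1000 UMIs and a mitochondrial share of 20%. The mitotic pair, the zone gates and the replication sum were read after thinning to 3400 UMIs, the 10th percentile rounded down. The isotype was read on unthinned counts. Unthinned counts were summed per library and class and tested with edgeR 4.0.16 (TMM, filterByExpr, quasi-likelihood, library as block because both classes come from the same library), with Benjamini-Hochberg adjustment over all genes tested. Intervals are exact binomial and cover counting error only. Scrublet in scanpy 1.11.5 called 0 doublets in either library, so it did not work here, and leaving out the top 6% of scores is an alternative. On simulated sums with 2-fold changes in 200 genes, 86.5% were recovered for the mitotic pair (11140 genes) and 84.5% for the replication sum (10267 genes). For the zones 79.0% were recovered (10700 genes) and for the isotypes 86.0% (11175 genes). Split by the pair, the zones gave 75% (9543 genes) and the isotypes 82% (10430 genes). There the changes were put in and read only in cells with the pair. Recovery in cells without the pair and in the interaction was not simulated. False calls ran from 1 to 13. The simulation had 1 fixed dispersion and no library effect. The members' called zone and isotype changes were below 2-fold, and recovery at such sizes was not simulated. Other alternatives were DESeq2 1.42.0, other size factors, filters, gates and mitochondrial limits.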

Additional observations from a re-analysis of the deposited data

Results flagged for a closer look

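For 6 mitotic motors the difference between the light and dark zone gates itself differed between cells with at least 2 and with 0 UMIs of Cdc20 and Plk1, by the interaction test in edgeR. On the log2 scale the difference of the zone effects, cells with the pair minus cells without, was 0.46 for Kif11, 0.69 for Kif20a, 0.50 for Kif20b, 0.57 for Kif23, 0.68 for Kif2c and 0.55 for Kif4. With the pair read from unthinned counts the same differences were 0.25, 0.21, 0.20, -0.0069, 0.27 and 0.19, and none of them passed.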

How the results depend on the processing

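Depth limits the low members: Kif19a, Kif9, Kif3c, Kif3a, Kif1b and Kif16b are tested on few UMIs, and with 2 libraries the spread between samples is poorly known. DESeq2, and the fit with no replicate block, call fewer genes. With DESeq2 the genes called were 1572 for the mitotic pair, 3053 for the replication sum, 1015 for the zones, 270 for the isotypes, 795, 328 and 51 for the zones without the pair, with it and their interaction, and 123 and 125 for the isotypes without and with it. The members called were 0 lower for the mitotic pair, 9 lower for the zones, 8 and 0 lower for the zones without and with the pair, 1 higher in the interaction, and 0 higher for the isotypes, in all cells and without the pair. In the analysis with no replicate block, where the pairing by library is ignored, the genes called were 1275 for the mitotic pair, 3834 for the replication sum, 551 for the zones, 86 for the isotypes, 555, 40 and 0 for the zones without the pair, with it and their interaction, and 82 and 41 for the isotypes without and with it. Members called without the block were 0 lower for the mitotic pair, 9 lower for the zones, 0 lower for the zones with the pair, 0 higher in the interaction and 0 higher for the isotypes, in all cells and without the pair. The blocked fit is the one reported.

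With mitochondrial UMIs held to 10%, the genes called were 3845 for the replication sum, 1068, 575 and 36 for the zones without the pair, with it and their interaction, and 2 for the isotype interaction. Members lower were then 0 for the mitotic pair, 1 for the replication sum, and 6 and 0 for the zones without and with the pair, and members higher 0 for the zone interaction and 0 for the isotypes, in all cells and without the pair. At a limit of 40% the isotype genes were 3162, 1494, 800 and 2 (all cells, without the pair, with it, interaction), the members higher 7 and 8 (all cells, without the pair), and the members lower for the zones with the pair 2. Testing the thinned counts gave 906, 326 and 146 genes for the isotypes (all cells, without, with), 1533, 905, 115 and 78 for the zones (all cells, without, with, interaction), members lower of 0 for the mitotic pair and of 6 and 0 for the zones without and with it, 3 members higher in the zone interaction and 0 for the isotypes without the pair.

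With the pair read from unthinned counts (chosen after seeing the data), the zones gave 1378, 2085 and 45 genes (without the pair, with it, interaction), with 3, 10 and 0 members called. Gates on unthinned counts gave 1 member higher for the zones in all cells and 2 lower for the mitotic pair. Reading the pair so reversed Kif3b by the mitotic pair (-0.081), Kifc1 by zone without the pair (0.014) and Kif23 in the zone interaction (-0.0069). With the pair gated at 3 UMIs, 433 genes were called for the zones with the pair and 102 for the interaction. With isotypes at 10 UMIs and 90%, the isotype interaction called 6 genes, and members were 1 higher and 1 lower in all cells and 1 lower without the pair. Without the low-count filter the isotype interaction called 3 genes. Without the highest doublet scores, and without barcodes holding UMIs of other lineages, 1 member was higher for the isotypes without the pair, and in the latter 0 were lower for the zones with it. The cause of these changes was not tested. Leaving out 1 library leaves no residual spread, so it gave values with no test. Of these values for members that had passed, 137 moved by less than the spread between libraries and 9 moved further. The reported value mostly lies between the 2 library values, so the first count comes out high however far the libraries differ. It is no measure of stability. None of the values turned its sign, and Kif19a by replication sum had no value. Some members that had not passed differ in sign between the libraries, such as Kif1b by the mitotic pair (-0.43 and 0.08). Over all alternatives, 238 of the counts of genes and members stayed within 1.5 times the reported count and 80 did not, and of the members' log2 fold changes that passed, tested again under an alternative, 667 kept their direction and call, 136 lost the call and 3 reversed.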
